A study of Homo sapiens with 24 samples.

Results

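The gene expression of unexposed LUHMES aggregates was compared between day 8 and day 15, that is, over the last week of their 3D culture. LUHMES is a conditionally immortalized human mesencephalic line that carries a tetracycline-controlled v-myc oncogene; when tetracycline shuts the oncogene off, the cells stop dividing and become dopaminergic neurons. The comparison used 6 of the 24 arrays of the study, chosen by their labels: 3 arrays of aggregates that received the solvent DMSO on day 7 and were collected on day 8, and 3 arrays of aggregates that received DMSO on day 7, were washed, and were kept for 7 further days until day 15. The other 18 arrays hold aggregates exposed to rotenone, an inhibitor of mitochondrial complex I, at 50 nM for 12 h, 50 nM for 24 h or 100 nM for 24 h, collected on the same 2 days, and served here for the estimate of the spread and as separate courses from day 8 to day 15. All groups are of the same human line. Whether the replicates came from separate cultures is not given in the sources used here, so that p values measure only the spread between these samples, which may be technical.

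Midbrain dopaminergic neurons make dopamine from tyrosine through tyrosine hydroxylase (TH) and aromatic amino acid decarboxylase (DDC), load it into vesicles with the transporter SLC18A2 and take it back up with SLC6A3. Their precursors are specified by transcription factors such as OTX2, FOXA2, LMX1A, LMX1B and EN1, and NR4A2 and PITX3 act in the neurons themselves. Maturing neurons in general leave the cell cycle, switch off the proneural factors of the precursor, and build synapses and the ion channels of excitable membranes.

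RNA was measured on single-color Agilent arrays with 62976 spots, and all levels are normalized log2 intensities, so that a difference of 1 is a doubling. The share of spots that the scanner software marked well above background was 54.0% to 67.3% on day 8 and 51.7% to 75.4% on day 15. Each slide carried 1 array of every group, with day 8 and day 15 arrays at different places on the slide, so that place and day cannot be told apart. Arrays of the same day correlated at 0.974 to 0.988 over genes and arrays of different days at 0.959 to 0.977. One doubt concerns replicate 1 of the day 15 DMSO group, whose scan was named for 12 h and not for DMSO; its group rests on its label. Without this array 1182 genes were called higher and 1188 lower. The neuronal character of the aggregates was checked with 11 markers that all neurons share: TUBB3, STMN2 and the other 9 were well above background on all 6 arrays, and 0 of the 11 were called.

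Of 21344 genes tested, 1273 (5.96%) were called higher on day 15 and 1337 (6.26%) lower, at a fold change over 1.5 with a limma adjusted p under 0.05. In either direction this was 12.2% of the genes. At any fold, 5194 genes had an adjusted p under 0.05, of which 2282 were higher. There was no overlap between the 2 days for 1141 of the genes called higher and 1211 of those called lower, and for 27.5% of all genes tested. On each of the 3 slides taken alone, 2596 of the 2610 called genes differed in the direction of their call, against 53.1% of all genes with 1 direction on all slides. The median change of all genes was -0.04. The split of the calls depends on the scaling: with the signal that the scanner software itself had corrected, brought to an equal 75th percentile on all arrays, 2381 genes were higher and 1140 lower, so that 67.6% of the calls were higher in place of 48.8%, and the median of all genes was 0.15.

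**Figure D1:**
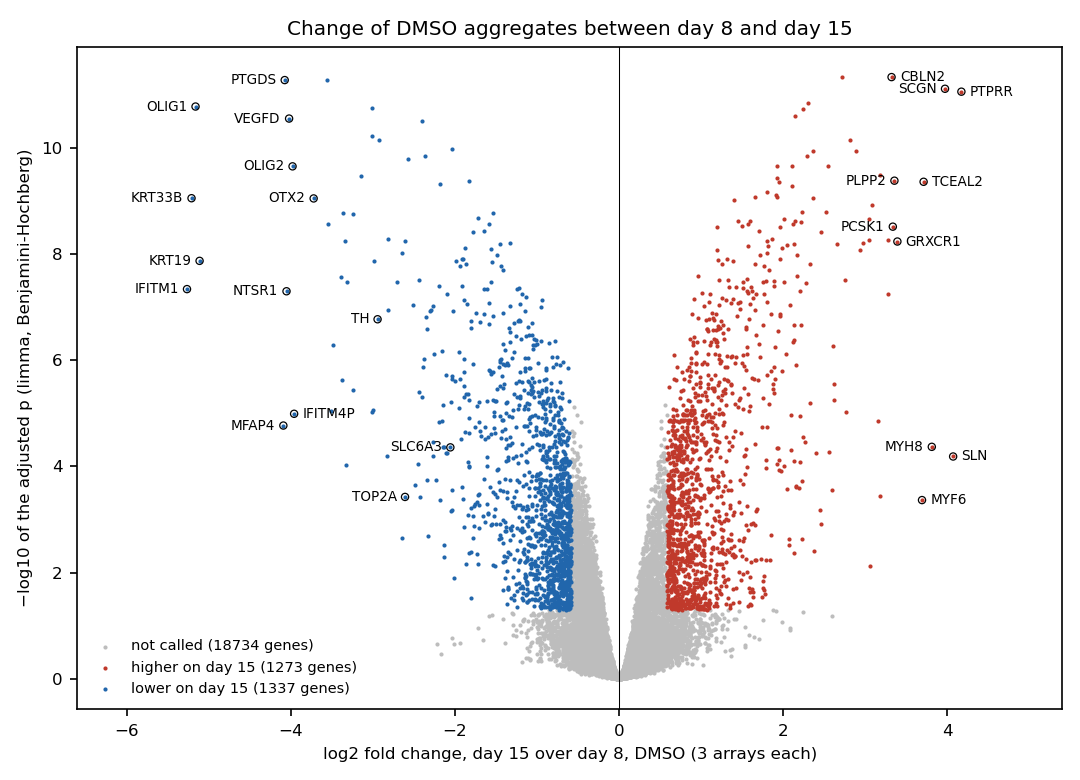
Change of each of 21344 genes (log2 fold change of day 15 over day 8, 3 DMSO arrays each, x axis) against its limma adjusted p (−log10, y axis). Red and blue points are the 1273 and 1337 genes called higher and lower; the named genes with the largest changes reach 4.17 (PTPRR) on the right and -5.26 (IFITM1) on the left.

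The genes that rose most included genes of calcium handling and neuronal signaling. PTPRR, a protein tyrosine phosphatase that acts on MAP kinases, measured 5.19, 5.34 and 5.27 on the day 8 arrays and 9.16, 9.76 and 9.40 on the day 15 arrays. All day 15 arrays were thus far above all day 8 arrays, by 4.17 ± 0.15 (SE, n = 3 arrays per day, adjusted p = 8.82e-12). SCGN, the calcium-binding protein secretagogin, went from 8.66, 8.47 and 8.37 to 12.25, 12.64 and 12.54, a rise of 3.97 ± 0.14. CBLN2, a secreted organizer of synapses, went from 9.09, 9.11 and 8.95 to 12.14, 12.52 and 12.46, a rise of 3.32 ± 0.10. PCSK1, a convertase that cuts prohormones, rose by 3.34 and was well above background on 2 of 3 day 8 arrays. TCEAL2 (3.71), GRXCR1 (3.39) and PLPP2 (3.36), a lipid phosphatase, were also among the 10 with the largest rises that had no overlap between days. The remaining 3 of these 10, SLN, MYH8 and MYF6, are muscle genes and are described with them further on.

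The largest falls were in an interferon-induced gene, keratins and glial lineage factors. IFITM1, an interferon-induced membrane protein, measured 11.59, 10.11 and 10.37 on day 8 and 5.14, 5.63 and 5.51 on day 15, a fall of -5.26 ± 0.39 (adjusted p = 4.59e-08). OLIG1, a helix-loop-helix factor of the motor neuron and oligodendrocyte lineages, measured 12.31, 12.73 and 12.71 on day 8 and 6.93, 7.44 and 7.92 on day 15 (-5.16 ± 0.19). Its relative OLIG2 fell by 3.98, from 9.29, 9.33 and 9.44 to 4.94, 5.58 and 5.62. Both were still well above background on all day 15 arrays. The keratin KRT19 changed by -5.11 and KRT33B, another keratin, by -5.21, the latter measured on 2 of 3 day 15 arrays. Further falls were those of PTGDS (-4.07), the synthase of prostaglandin D2, MFAP4 (-4.09), a microfibril protein, VEGFD (-4.02), a growth factor of lymphatic vessels, and NTSR1 (-4.05), a neurotensin receptor measured on 2 of 3 day 15 arrays. IFITM4P (-3.96) is a pseudogene whose sequence is close to those of the IFITM genes, so that its probe may read their transcripts. Since RNA of whole aggregates was measured, here and below fewer cells of a kind and less RNA per cell cannot be told apart.

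Called members were then counted in 21 gene lists. These lists were chosen with earlier results of these data known, so that the shares are a description and not a test. The lists in which the largest shares of members were called higher were the postsynaptic list (32.6%), the dopaminergic list (28.6%), the sodium and calcium channels (27.9%) and the synaptic vesicle list (22.6%), to be read against 5.96% of all genes. The largest share called lower was that of the cell cycle list (66.7%), followed by neural progenitor genes (32.4%) and genes of young neurons (23.5%), against 6.26% of all genes.

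**Figure D2:**
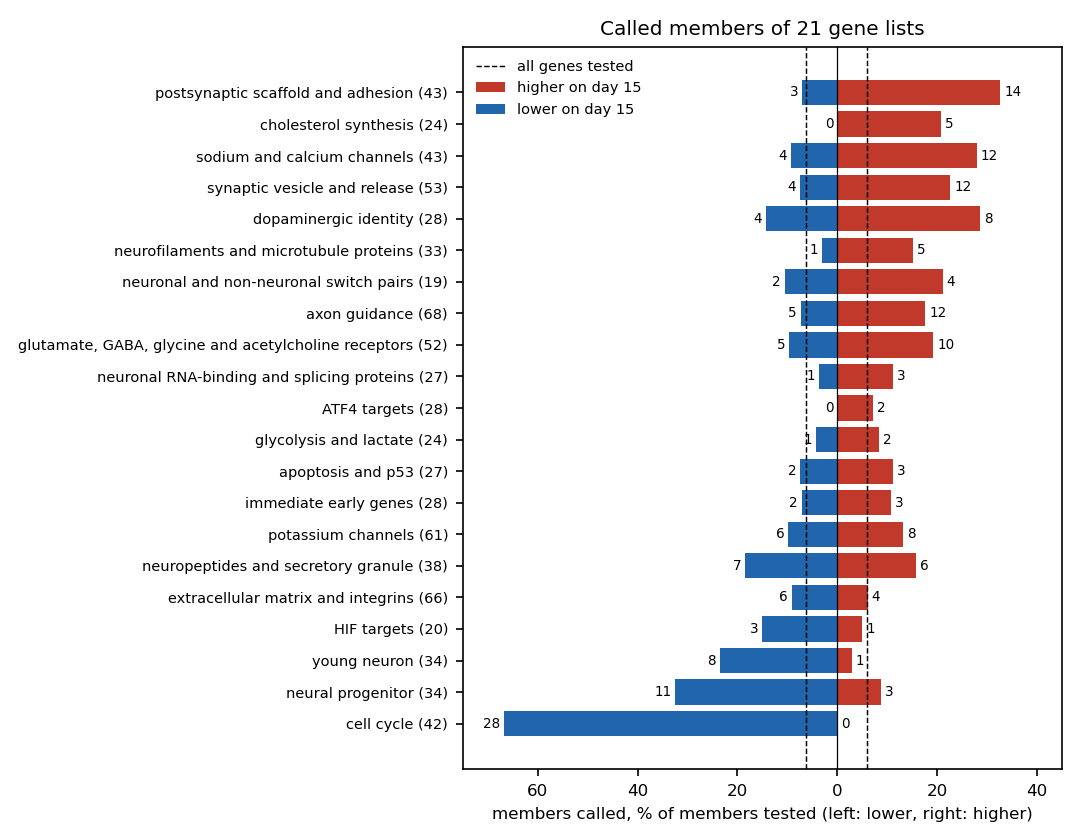
Share of the tested members of 21 gene lists (number tested in parentheses) that were called lower (blue, left) and higher (red, right) on day 15, in percent, with the number called at each bar. The dashed lines give the shares over all genes, 6.26% and 5.96%; the cell cycle bar reaches 66.7% to the left and has none to the right.

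The genes that mark dopaminergic neurons moved in both directions. Of 28 tested, 8 (28.6%) were called higher and 4 (14.3%) lower, against 5.96% and 6.26% of all genes, with a median of 0.10. TH measured 9.71, 9.87 and 9.77 on day 8 and 6.73, 6.83 and 6.96 on day 15. The 2 days were far apart, and the change was -2.94 ± 0.24 (adjusted p = 1.70e-07); the 2 probes of the gene fell by 3.61 and by 2.27. SLC6A3, the dopamine transporter, measured 8.73, 7.73 and 8.18 on day 8 and 6.15, 6.17 and 6.15 on day 15, a change of -2.05 ± 0.28, with 2 probes at -2.24 and -1.87. OTX2 went from 8.07, 8.44 and 8.41 to 4.56, 4.84 and 4.36 (-3.72 ± 0.20), and was above background on 2 of 3 day 15 arrays. GFRA1, the receptor subunit that binds GDNF, changed by -0.75. All 4 genes stayed called whichever of the 6 arrays was left out.

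Among the members called higher, MAOA, the monoamine oxidase that breaks down dopamine, measured 5.93, 5.92 and 5.95 on day 8 and 7.70, 8.05 and 7.52 on day 15 (1.83 ± 0.13). NR4A2 went from 5.84, 6.49 and 6.25 to 7.89, 7.69 and 7.66 (1.55 ± 0.16, adjusted p = 1.56e-06). The day 15 arrays of these 2 genes all lay above the day 8 arrays. RET, the signaling receptor for GDNF, rose by 1.22 and KCNJ6, a potassium channel of dopaminergic neurons, by 1.15. A further 3 calls were less secure. FOXA2 (1.42, adjusted p = 0.0194) was not called without day 8 replicate 3 (1.21), day 15 replicate 2 (1.40) or day 15 replicate 3 (1.31), and GCH1 (0.73), an enzyme of the TH cofactor, not without day 8 replicate 2 (0.56) or day 15 replicate 3 (0.58). LMX1B (0.75) was called without day 8 replicate 1 only (0.89) and lay at 0.63 to 0.83 without the others; its probe well above background on all arrays rose by 1.49, and the other, above it on 1 array of each day, by 0.01. The count of 8 called higher fell to 5 without day 15 replicate 3.

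The other 16 members were not called. DRD2, the dopamine autoreceptor, measured 13.54 on average on day 8 and 13.47 on day 15. EN1 changed by -0.49 and PITX3 by 0.45, both with an adjusted p under 0.05 but a fold under 1.5. The 2 probes of DDC disagreed: the brighter changed by -1.04 and the other, not well above background on any array, by 0.36. SLC18A2 was well above background on 0 of 3 day 8 arrays and 1 of 3 day 15 arrays, while FOXA1 and MAOB were not on any, and LMX1A and ALDH1A1 were on 1 array of each day. The transporter of the vesicles and several of the lineage factors were therefore at or near the limit of the array on both days.

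**Figure D3:**
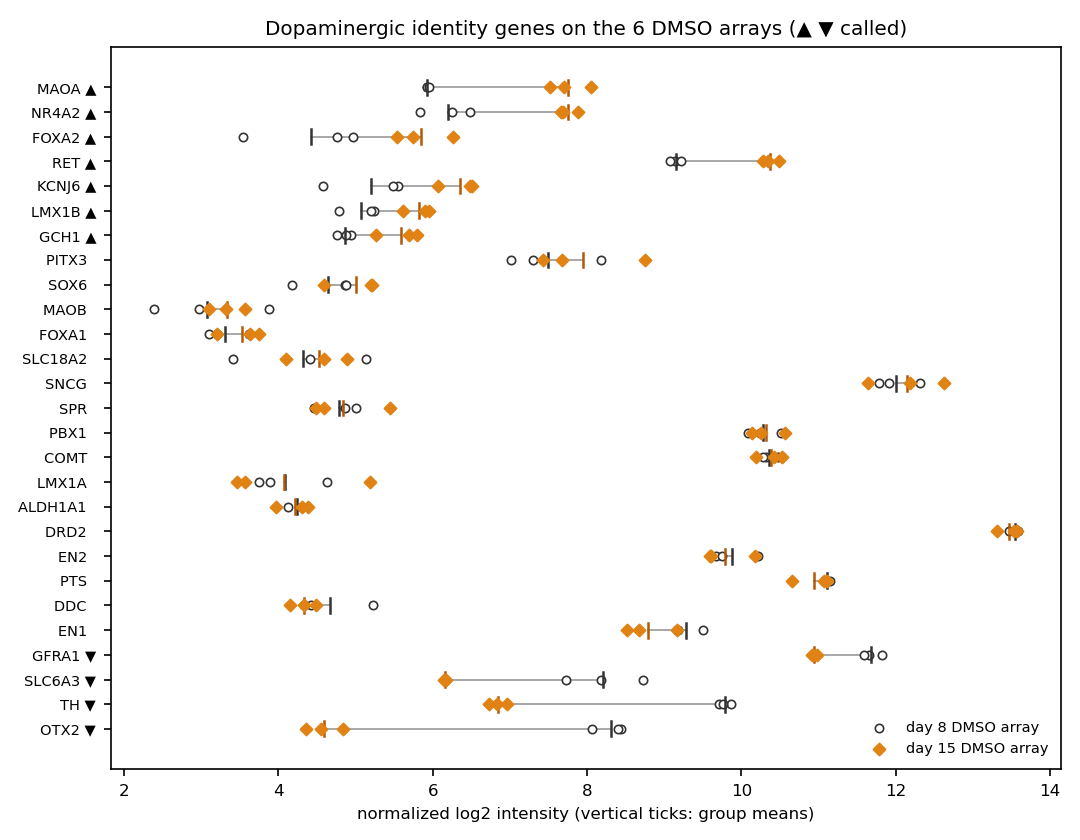
Normalized log2 intensity (x axis) of 27 dopaminergic identity genes on the 3 day 8 (open circles) and 3 day 15 (orange diamonds) DMSO arrays, with group means as vertical ticks, ordered by the change. Triangles mark the genes shown that were called; TH, SLC6A3 and OTX2 lie apart on the lower side and MAOA and NR4A2 on the upper.

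Most cell cycle genes fell. Of 42 tested, 28 (66.7%, against 6.26% of all genes) were called lower and 0 higher, and the median was -1.15. For all 28, every day 15 array lay below every day 8 array, and each slide alone gave a fall. TOP2A, the DNA topoisomerase of dividing cells, measured 6.93, 5.69 and 5.88 on day 8 and 3.05, 3.81 and 3.82 on day 15, where it was not well above background on any array, so that it was at least 4.85-fold lower (adjusted p = 0.000374). TYMS, which makes thymidylate for DNA synthesis, went from 8.54, 7.15 and 7.2 to 5.0, 5.95 and 5.4 (-2.18 ± 0.38). BIRC5, a protein of the mitotic spindle and of survival, went from 9.30, 6.84 and 7.17 to 4.82, 5.15 and 5.42 (-2.64 ± 0.56). Day 8 replicate 1 was the highest day 8 array for each of these 3 genes. Smaller falls were seen in MCM7, a subunit of the replicative helicase, from 10.96, 10.83 and 11.08 to 10.03, 9.91 and 10.10 (-0.94), and in the centromere gene CENPU (-0.99). TOP2B, a relative of TOP2A, changed by -0.33 and was not called.

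The size of these falls rested partly on day 8 replicate 1. Without it 20 members were called lower, BIRC5 changed by -1.90 and UBE2C, a ubiquitin-conjugating enzyme of mitosis, by -1.42 in place of -2.0, no longer called. On slides 2 and 3 alone 14 members were called lower, and with the 6 DMSO arrays alone 17. HMMR, TK1 and PTTG1 also lost their call without day 8 replicate 1, at -0.77, -0.72 and -0.72. All 4 of these genes lost it without day 15 replicate 1 as well, at -0.88 for HMMR, -1.22 for TK1, -0.89 for PTTG1 and -1.66 for UBE2C. HMMR and TK1 lost it without day 15 replicate 2 (-1.25 and -1.3), and HMMR without day 8 replicate 3 (-1.2). With any of the other 5 arrays left out, 23 to 32 members were called.

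**Figure D4:**
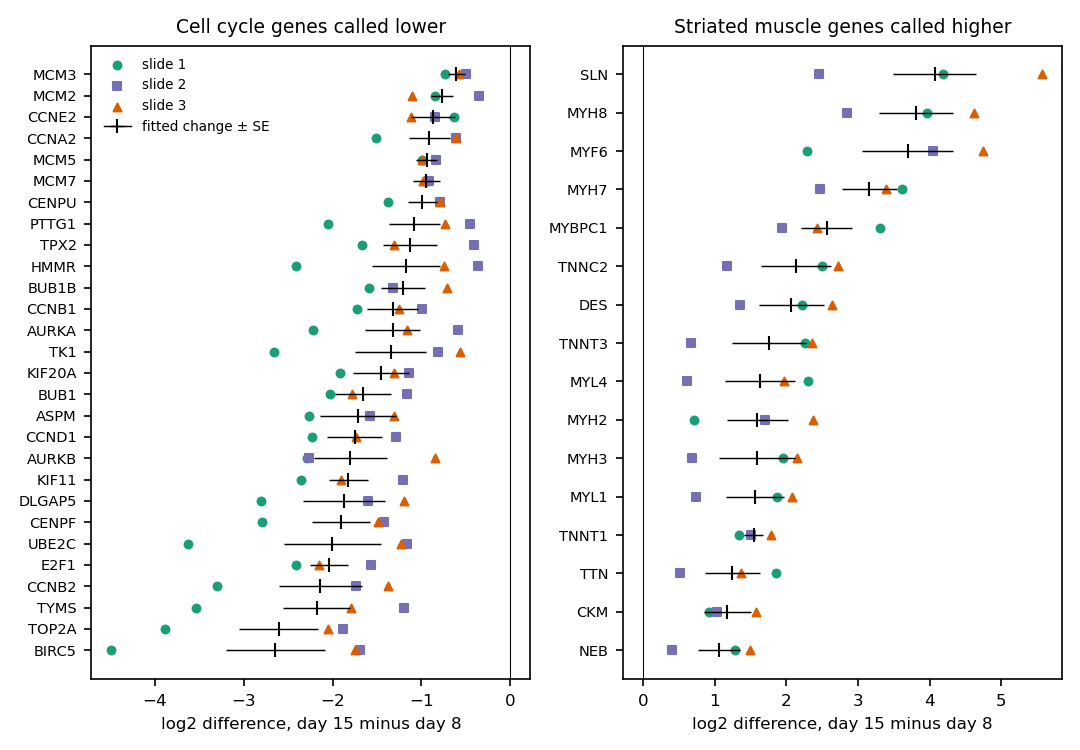
Log2 difference of day 15 minus day 8 (x axis) on each of the 3 slides (points) and the fitted change ± SE (black) for the 28 cell cycle genes called lower (left) and 16 striated muscle genes called higher (right). All points lie on the side of the call; for many cell cycle genes, such as BIRC5, slide 1 holds the largest difference.

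Since these genes moved together, their promoters are shown for 3 of them, to compare the motifs of cell cycle genes. The 250 bases before the gene start (RefSeq, GRCh38.p14) are given from 5′ to 3′ in the direction of the gene, for TOP2A at chr17:40417897-40418146 (minus strand), CCNB2, cyclin B2, at chr15:59104896-59105145 (plus strand), and MCM7 at chr7:100101398-100101647 (minus strand). Capitals mark the CCAAT box, the cell cycle homology element with the letters TTTGAA, and the E2F motif with the letters TTTCCCGC (TTTGGCGC was searched too), each on either strand.
TOP2A: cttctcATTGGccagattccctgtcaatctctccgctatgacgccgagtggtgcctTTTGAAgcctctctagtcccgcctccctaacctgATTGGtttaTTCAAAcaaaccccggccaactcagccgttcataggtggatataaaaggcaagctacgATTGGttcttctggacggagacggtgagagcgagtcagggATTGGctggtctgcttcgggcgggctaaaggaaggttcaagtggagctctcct
CCNB2: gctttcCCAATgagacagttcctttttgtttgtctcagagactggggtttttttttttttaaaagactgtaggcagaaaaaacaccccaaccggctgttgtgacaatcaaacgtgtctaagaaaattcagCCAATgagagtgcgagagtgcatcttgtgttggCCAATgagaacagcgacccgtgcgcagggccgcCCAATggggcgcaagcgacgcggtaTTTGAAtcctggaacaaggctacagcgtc
MCM7: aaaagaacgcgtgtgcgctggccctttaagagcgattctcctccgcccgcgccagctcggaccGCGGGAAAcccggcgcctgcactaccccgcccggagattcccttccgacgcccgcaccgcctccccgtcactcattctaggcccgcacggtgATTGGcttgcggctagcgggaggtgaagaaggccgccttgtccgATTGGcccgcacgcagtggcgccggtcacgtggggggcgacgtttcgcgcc
CCNB2 fell from 8.19, 6.73 and 6.58 to 4.90, 5.0 and 5.2. In 300 bases around the gene start, 17 of the 21 promoters found for the 28 genes called lower held a CCAAT box (81.0%), against 35.7% of 27305 promoters. The TTTGAA element was in 38.1% against 15.4%, and an E2F motif in 19% against 2.31%. Promoters of the cell cycle genes that were tested and not called held the 3 motifs in 72.7%, 36.4% and 45.5% of 11 cases, shares that were also above those of all promoters. Of 19 promoters of synaptic genes called higher, 15.8% held a CCAAT box, 26.3% the TTTGAA element, which is also above the share of all promoters, and 0 an E2F motif. A match describes letters in this window and is not a bound site.

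Of the proneural and precursor genes more fell than rose, and most were not called. Among 34 neural progenitor genes 11 (32.4%) were called lower and 3 (8.82%) higher. Among 34 genes of young neurons 8 (23.5%) were lower and 1 (2.94%) higher. The shares of all genes were 6.26% lower and 5.96% higher. NEUROG1, a proneural helix-loop-helix factor, measured 9.09, 9.37 and 9.47 on day 8 and 5.79, 5.95 and 6.17 on day 15 (-3.34 ± 0.21). NEUROD4 went from 9.15, 9.61 and 9.58 to 5.17, 6.34 and 6.20 (-3.54), and NEUROD2 from 7.31, 7.19 and 7.67 to 4.23, 4.10 and 3.69 (-3.38), measured on 1 of 3 day 15 arrays. NEUROD1 changed by -1.81 and ST18, a zinc finger factor, by -2.37. These helix-loop-helix factors were apart on the 2 days on every array. JAG1, a Notch ligand, changed by -2.35, and LIN28B, an inhibitor of let-7 processing, went from 13.19, 13.38 and 13.24 to 11.88, 12.24 and 11.93 (-1.25). The exceptions were CRABP1, a retinoic acid-binding protein, with a rise of 1.62, the Notch ligand DLL1 (0.76), the intermediate filament gene VIM (0.65) and, in the other list, MYT1L (0.77), a factor that represses non-neuronal genes. VIM was not called without day 8 replicate 1 (0.57). DCX (0.42) and NES (0.40) were not called.

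More genes of the synapse rose than fell. Of 53 synaptic vesicle genes 12 (22.6%) were called higher and 4 (7.55%) lower, with a median of 0.29. Of 43 postsynaptic and adhesion genes 14 (32.6%) were higher and 3 (6.98%) lower, with a median of 0.16. Among all genes 5.96% were called higher and 6.26% lower, so that the shares called lower were about that of all genes. SYN2, a synapsin that tethers vesicles, measured 6.79, 6.91 and 6.77 on day 8 and 8.72, 8.64 and 8.39 on day 15 (1.76 ± 0.13, adjusted p = 3.34e-08). Its 2 probes differed in size, at 0.94 and 2.57. SNCB, beta-synuclein, went from 7.69, 7.44 and 7.50 to 9.29, 9.24 and 8.80 (1.56), and RAB3B, a small GTPase of vesicle release, from 7.23, 7.66 and 7.60 to 9.07, 8.89 and 9.09 (1.52). In these 3 genes the days did not overlap. On the receiving side SLITRK3, an adhesion protein of inhibitory synapses, rose from 4.50, 5.34 and 5.13 to 7.22, 8.00 and 7.62 (2.62 ± 0.28). CNTNAP2, a neurexin-like adhesion protein, rose by 2.13 and was measured on 2 of 3 day 8 arrays. CPLX3, a complexin that clamps release, went the other way, from 9.56, 8.97 and 9.30 to 7.30, 7.39 and 7.49 (-1.89). The adhesion protein IGSF11 (-1.41), the scaffold SHANK2 (-0.82) and CBLN1 (-0.66), a relative of CBLN2, were also lower. So was VAMP1 (-0.73), measured on 2 of 3 day 15 arrays. The probes of SHANK2 changed by -1.30 to -0.33. SYT5 (-0.63) was not called without day 8 replicate 1 (-0.58), which left 2 vesicle genes lower, and 14 postsynaptic calls became 9 on slides 2 and 3 alone.

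Ion channel genes were called in both directions, and most were not called. Of 43 sodium and calcium channel genes 12 (27.9%) were called higher and 4 (9.3%) lower. Of 61 potassium channel genes 8 (13.1%) were higher and 6 (9.84%) lower, against 5.96% and 6.26% of all genes. CACNA1G, a T-type calcium channel, measured 5.34, 5.78 and 5.13 on day 8 and 7.59, 7.62 and 7.47 on day 15 (2.14 ± 0.12). The R-type channel CACNA1E went from 6.61, 6.82 and 6.53 to 8.78, 8.41 and 9.03 (2.08 ± 0.16), and SCN7A, an atypical sodium channel, from 5.17, 5.89 and 5.21 to 7.2, 7.78 and 7.81 (2.17). CACNA1A, the P/Q-type channel, changed by -0.79, and CACNA2D4, an auxiliary subunit, was not well above background on any day 15 array and was at least 3.20-fold lower. SCN4A (-0.92, adjusted p = 0.0438) was measured on 2 of 3 day 15 arrays and lost its call whichever of the 6 arrays was left out (-1.05 to -0.76). Among potassium channels, KCNC2, a fast delayed rectifier, rose from 4.99, 5.45 and 5.34 to 7.43, 7.90 and 7.84 (2.46 ± 0.15). KCNJ2, an inward rectifier, rose by 1.80. KCNT1, a sodium-activated channel, measured 8.45, 8.44 and 8.50 on day 8 and 6.18, 6.69 and 6.80 on day 15 (-1.91), KCNIP4, a subunit of A-type channels, fell by 2.05, and KCNH6 changed by -1.34. With the software's corrected signal 17 potassium channel genes were called higher in place of 8.

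Transmitter receptors were called higher in 10 of 52 cases (19.2%, against 5.96% of all genes) and lower in 5 (9.62%, against 6.26%). Their median was 0.30. GRIK1, a kainate receptor subunit, measured 5.19, 6.24 and 6.03 on day 8 and 8.77, 8.79 and 8.70 on day 15 (2.94 ± 0.19, adjusted p = 8.35e-09). GRM3, a metabotropic glutamate receptor, rose by 2.77 and was measured on 2 of 3 day 8 arrays, and GRIN3A, an NMDA receptor subunit, went from 6.33, 4.92 and 5.01 to 7.81, 7.83 and 7.96 (2.45). The relatives GRM2 and GRM4 moved down: GRM2 went from 11.11, 11.28 and 10.94 to 10.03, 9.92 and 9.82 (-1.19), and GRM4 changed by -1.02. CHRNA3, a nicotinic receptor subunit, changed by -1.37 and was measured on 2 of 3 day 15 arrays. With the software's corrected signal 16 receptor genes were called higher.

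Neuropeptides and their processing enzymes divided into 6 called higher (15.8%) and 7 lower (18.4%) of 38, against 5.96% and 6.26% of all genes. CCK, the peptide cholecystokinin, measured 4.76, 4.87 and 4.79 on day 8, where 1 of 3 arrays was well above background, and 6.5, 7.18 and 7.36 on day 15 (2.20 ± 0.26). The convertase PCSK2 rose by 2.15, beside PCSK1 above, and SCG2, a granin of the secretory granule, went from 8.78, 8.80 and 8.76 to 10.72, 10.35 and 10.53 (1.75). GAL, the peptide galanin, fell from 11.24, 10.61 and 10.81 to 7.91, 8.14 and 8.16 (-2.81 ± 0.17), and SST, somatostatin, from 14.76, 14.60 and 15.02 to 13.56, 13.80 and 13.55 (-1.15). The growth factors NTF3 (-1.45) and NRTN (-1.16), a ligand of the GDNF receptor family, were also lower. CCK thus rose with the convertases and SCG2 while galanin and somatostatin fell, so that peptides moved in both directions. With the software's corrected signal 11 genes of this list were called higher in place of 6.

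Axon guidance genes were called higher in 12 of 68 cases (17.6%, against 5.96% of all genes) and lower in 5 (7.35%, against 6.26%). The largest change was that of EPHA4, an ephrin receptor, from 7.26, 7.63 and 7.59 on day 8 to 10.81, 10.50 and 10.32 on day 15 (3.05 ± 0.17). SEMA3C, a secreted guidance cue, rose by 1.27, and EPHA8 was at least 2.01-fold higher, with 0 of 3 day 8 arrays well above background. DCC, the netrin receptor, went from 7.74, 8.20 and 7.89 to 6.07, 6.97 and 6.60 (-1.40), and NRP2 (-0.84) and PLXNB1 (-0.82), receptors of semaphorins, were lower. Of 66 matrix and integrin genes 4 (6.06%) were called higher and 6 (9.09%) lower, so that the share called higher was about that of all genes. TNC, the matrix protein tenascin C, went from 8.42, 8.10 and 8.73 to 6.05, 6.13 and 6.25 (-2.27 ± 0.30), and the collagen COL9A1 changed by -1.12. COL6A2 rose by 0.87. LAMA2 (0.92) lost its call without day 8 replicate 1 (0.87) or day 15 replicate 1 (0.77), and without day 8 replicate 1 only 1 matrix gene was called higher. HAPLN1, a hyaluronan link protein, was well above background on 0 of 3 day 8 and 2 of 3 day 15 arrays and at least 1.94-fold higher, a call lost whichever array was left out. With the software's corrected signal 14 matrix and integrin genes were called higher in place of 4.

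In the cytoskeleton list 5 of 33 genes (15.2%) were called higher and 1 (3.03%) lower, against 5.96% and 6.26% of all genes. KIF21B, a kinesin of dendrites, rose from 8.86, 9.26 and 9.21 to 10.87, 10.65 and 10.35 (1.51 ± 0.14), MAPT, the axonal protein tau, by 0.84, and PRPH, the filament protein peripherin, by 0.78. The probes of KIF21B rose by 0.86 and 2.17 and those of MAPT by 0.51 and 1.17. NEFH, the heavy neurofilament chain, measured 10.71, 10.47 and 10.84 on day 8 and 9.66, 9.76 and 9.74 on day 15 (-0.95), below in all arrays. Of 19 genes that form pairs switched during neuronal differentiation, 4 (21.1%) were called higher and 2 (10.5%) lower, against 5.96% and 6.26% of all genes. Those higher were SCN2A (0.85), PTBP2 (0.77), DPF1 (0.75) and KIF5A (0.68), and TOP2A was lower. DPF3 (-0.79), a relative of DPF1, was also lower and so moved against DPF1. KIF5A was not called without day 8 replicate 3 (0.48), and with the 6 DMSO arrays alone 0 genes of this list were called higher. The chloride transporters SLC12A2 (-0.23) and SLC12A5 (-0.25) were not called. The same held for ACTL6B (0.29), SS18L1 (0.34), SS18 (-0.19) and PHF10 (-0.68). Partners of genes that rose were not called either: SCN3A changed by -0.003 and KIF5B by 0.07 and 0.10 on its probes. PTBP1 (-0.57), also not called, was well above background on 1 of 3 arrays of each day. REST rose by 0.98, with 0 of 3 day 8 and 2 of 3 day 15 arrays well above background, and was not called. Among 27 RNA-binding and splicing genes only 3 (11.1%) were called higher and 1 (3.7%) lower, against 5.96% and 6.26% of all genes. Of these, MBNL1, a splicing regulator, measured 9.59, 9.38 and 9.45 on day 8 and 10.44, 10.40 and 10.38 on day 15 (0.93 ± 0.09). SRRM4 (0.64) and CELF6 (0.62) were not called without day 15 replicate 2 (0.56 and 0.57), SRRM4 also not without day 8 replicate 3 (0.58). NOVA1, a neuronal splicing factor, was called lower (-0.69), but its brighter probe changed by -0.26 and the dimmer by -1.125. Its call was lost with the brightest probe of each gene, on slides 2 and 3 alone and with the 6 DMSO arrays alone, among other settings.

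Metabolic and stress lists were counted in the same way, beside 5.96% of all genes called higher and 6.26% lower. Of 24 cholesterol synthesis genes 5 were called higher and 0 lower, with a median of 0.35. MVD, an enzyme of the mevalonate pathway, measured 9.0, 8.74 and 8.59 on day 8 and 9.77, 9.54 and 9.66 on day 15 (0.88), and LSS, which closes the sterol rings, changed by 0.66. Without day 8 replicate 2 the count was 2; MSMO1 (0.65) and FDPS (0.62) then lay at 0.57 and 0.58. Of 24 glycolysis genes 2 rose and 1 fell: PFKP, a phosphofructokinase, went from 6.93, 7.33 and 7.29 to 8.96, 8.70 and 8.90 (1.68 ± 0.13), the hexokinase HK1 rose by 0.75, and the lactate transporter SLC16A1 changed by -0.82. Among 28 ATF4 targets, CEBPB, a bZIP factor, rose from 6.70, 6.75 and 6.77 to 8.45, 8.69 and 8.54 (1.82 ± 0.11) and the cystine transporter SLC7A11 by 0.97, and 0 fell. Of 20 HIF targets 1 was called higher and 3 lower, among them CA12 (-0.90) and ANKRD37 (-0.72). ANGPTL4 (0.67), the call upward, was lost without day 8 replicate 2 (0.61) or day 15 replicate 2 (0.62), and that of VEGFA (-0.78) without day 8 replicate 1 (-0.73), day 8 replicate 3 (-0.75) or day 15 replicate 1 (-0.58).

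Of 27 apoptosis and p53 genes 3 (11.1%) were called higher and 2 (7.41%) lower, against 5.96% and 6.26% of all genes. Those higher included PHLDA3 (0.74) and GADD45B (0.85, measured on 2 of 3 day 15 arrays), and those lower HRK (-0.80), an activator of apoptosis. PMAIP1 (0.60) was called without day 15 replicate 1 only (0.66; 0.54 to 0.64 without each other array), and TP53INP1 (-0.60) not without day 8 replicate 1 (-0.47), day 15 replicate 1 (-0.48) or day 15 replicate 2 (-0.55). ATF4 changed by 0.16 and GDF15, a stress-induced cytokine, by -0.46, and neither was called. Immediate early genes were called higher in 3 of 28 cases (10.7%) and lower in 2 (7.14%). With the software's corrected signal 9 were called higher, and 5 when probes had to be well above background, with the brightest probe of each gene, or without day 15 replicate 1. FOS measured 4.28, 4.05 and 4.66 on day 8, not well above background, and 5.62, 6.47 and 6.46 on day 15, at least 3.61-fold higher. EGR1 rose by 0.81, whereas ARC, a regulator of glutamate receptor uptake, went from 7.09, 7.27 and 7.63 to 5.69, 6.39 and 6.14 (-1.25) and BTG2, an antiproliferative gene, by -1.33. DUSP6 (0.60) was not called without day 8 replicate 1, day 8 replicate 3 or day 15 replicate 2 (0.57 to 0.58). Of further genes, LCP1, an actin-bundling protein, rose by 1.26 and CD200, a surface protein, by 1.04, while NFE2L2 and SLC1A1 were not well above background on any DMSO array.

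Markers of other cell types were counted next, beside 12.2% of all genes called in either direction. Of 9 astrocyte markers tested 0 were called higher and 1, SOX9, lower (-0.88), a call lost whichever array was left out; the astrocyte filament GFAP was not well above background on any array, and the summed astrocyte level (log2 of summed intensities) was 9.97 to 10.28 on day 8 and 9.62 to 9.81 on day 15. Of 9 oligodendrocyte lineage markers only OLIG1 and OLIG2 were called, and the summed level went from 12.56 to 12.91 on day 8 to 8.92 to 9.15 on day 15, which is the fall of these 2 genes; MBP, the myelin basic protein, changed by 0.10. Of 9 microglia markers 0 were called, at a summed level of 7.76 to 7.91 and 7.79 to 8.03. Among 9 fibroblast and mural markers TAGLN (0.63) was higher, lost without day 8 replicate 1 (0.55), and ACTA2 (-1.12) lower, and among 6 endothelial ones CLDN5 (-1.18), a tight junction protein, was lower. The summed level was 8.28 to 8.53 and 8.5 to 8.84 for the fibroblast and mural list, and 10.09 to 10.35 and 9.14 to 9.34 for the endothelial list.

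Markers of other transmitters were also compared, beside 12.2% of all genes called in either direction. Of 3 noradrenergic markers tested 1 was called lower and 0 higher, with 2 of the 3 changes above 0 and a median of 0.02. Of 3 cholinergic markers 1 was called higher, and of 4 GABAergic markers 1 was called lower. DBH, which makes noradrenaline from dopamine, measured 6.72, 6.49 and 6.62 on day 8 and was not well above background on day 15, at least 5.73-fold lower. SLC18A3, the vesicular transporter of acetylcholine, rose from 11.28, 10.77 and 11.02 to 12.19, 12.12 and 12.09 (1.11 ± 0.15), while CHAT (0.30), the enzyme that makes acetylcholine, was not called. SLC32A1, the vesicular GABA transporter, was called lower (-0.59), lost without day 8 replicate 1 (-0.47) or day 15 replicate 1 (-0.35). None of 4 serotonergic and 2 glutamatergic markers tested was called. Lists this short cannot be set apart from the share of all genes.

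The fall of IFITM1 was followed up in 27 interferon-induced genes, a list chosen after the values had been seen and given as a description. Of these, 6 (22.2%) were called lower and 5 (18.5%) higher, against 6.26% and 5.96% of all genes. The list thus did not move in 1 direction (median 0.02). IFITM3 measured 11.86, 10.24 and 10.64 on day 8 and 7.98, 8.00 and 7.74 on day 15 (-3.01), and IFI44L went from 9.17, 7.28 and 7.80 to 5.11, 4.32 and 4.31 (-3.50). IFITM2 (-3.00) and IFI44 (-2.14) also fell; the IFITM genes are close in sequence, and their probes may read more than 1 of them. ISG15, a ubiquitin-like protein induced by interferon, rose in contrast from 9.01, 8.70 and 8.96 to 10.73, 10.71 and 10.99 (1.92 ± 0.09). IFI6 rose by 1.42, B2M by 0.82 and IFIT1 was at least 2.95-fold higher, while MX1 (0.85) lost its call whichever array was left out (0.80 to 0.92). Day 8 replicate 1 was the highest array for IFITM1, IFITM2, IFITM3, IFI44L and IFI44, as it was for BIRC5 and TYMS.

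Promoters of a gene that fell and of a gene that rose are shown to compare the interferon-stimulated response element, whose core GAAANNGAAA is in capitals (250 bases before the gene start, RefSeq, GRCh38.p14, both on the plus strand), for IFITM1 at chr11:313790-314039 and ISG15 at chr1:1013247-1013496.
IFITM1: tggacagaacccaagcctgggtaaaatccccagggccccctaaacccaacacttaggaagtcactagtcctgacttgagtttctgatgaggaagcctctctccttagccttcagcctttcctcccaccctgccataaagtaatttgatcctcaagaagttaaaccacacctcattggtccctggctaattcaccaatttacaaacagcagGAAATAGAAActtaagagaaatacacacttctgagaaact
ISG15: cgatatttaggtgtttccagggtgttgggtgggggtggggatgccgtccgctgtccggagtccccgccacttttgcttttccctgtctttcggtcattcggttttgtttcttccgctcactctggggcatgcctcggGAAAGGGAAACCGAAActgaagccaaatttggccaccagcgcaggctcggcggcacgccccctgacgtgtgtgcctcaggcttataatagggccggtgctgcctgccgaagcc
In 300 bases around the start, either strand, the core was in 4 of 5 promoters found for the interferon-induced genes called lower and in 5 of 5 for those called higher, against 3.65% of all promoters. Genes of both directions therefore held it.

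Genes of striated muscle rose as well, in a list likewise chosen after the values had been seen. Of 31 tested, 16 (51.6%) were called higher and 0 lower, with a median of 1.25, against 5.96% and 6.26% of all genes called. SLN, which encodes the muscle calcium pump inhibitor sarcolipin, measured 4.14, 5.49 and 3.62 on day 8, where 1 of 3 arrays was well above background, and 8.33, 7.95 and 9.19 on day 15 (4.07 ± 0.58). The myosin heavy chain MYH8 rose by 3.81 and the muscle regulatory factor MYF6 by 3.69, each with 1 of 3 day 8 arrays well above background. MYH7, the slow myosin chain, was at least 8.94-fold higher. DES, the muscle filament desmin, went from 9.51, 9.78 and 9.35 to 11.72, 11.13 and 11.98 (2.07 ± 0.45), and TNNT1, a troponin, from 11.49 to 11.70 on day 8 to 13.04, 13.00 and 13.27 (1.54 ± 0.13). These 2 genes were thus present on both days. The muscle regulatory factors MYOD1 (-0.03) and MYOG (-0.21) were well above background on all 6 arrays and were not called. MYF5, a further such factor, was not well above background on any of these arrays. Without day 8 replicate 3 the count was 9 and without day 15 replicate 3 it was 10. The summed level of the list was 13.28 to 13.94 on day 8 and 14.86 to 15.55 on day 15.

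Rotenone-exposed aggregates gave 3 further courses from day 8 to day 15, on arrays that are not those of DMSO but lie on the same slides. With 50 nM for 12 h 6.75% of all genes were called higher on day 15 and 8.41% lower, with 50 nM for 24 h 7.62% and 8.35%, and with 100 nM for 24 h 7.71% and 10.2%. Of the genes called higher in DMSO, 67.2%, 66.6% and 65.1% were called higher in these courses, which is 59.4%, 52.2% and 50.4% of the genes each course called. Of those called lower in DMSO, 71.0%, 66.2% and 71.2% were lower there, 52.8%, 49.7% and 43.6% of the genes called in each. Called in the same direction in all 3 courses were 666 of the genes higher and 738 of those lower in DMSO, while 264 and 241 were called in none. Calls of the opposite direction numbered 0 to 3 per course. The cell cycle list had 22, 25 and 22 members lower in the courses and 0 higher, and the muscle list 15, 10 and 17 higher. Other lists had other counts than in DMSO. Of the cholesterol synthesis genes 4, 1 and 0 were called higher and 0, 3 and 1 lower, with medians of 0.32, -0.18 and -0.07 beside 0.35 in DMSO. Of the ATF4 targets 11, 6 and 6 were called higher, beside 2 in DMSO, and 0, 0 and 1 lower. TH changed by -3.01, -2.77 and -3.36 and PTPRR by 4.34, 4.66 and 4.44.

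The change in DMSO was also tested against the mean change of the 3 rotenone courses. This contrast was above 0 for 189 genes (0.885%) and below 0 for 201 (0.942%), at the same thresholds. Of the 2610 genes called in DMSO, 73 called higher and 62 called lower were called in it. In the dopaminergic, the cell cycle and the cholesterol synthesis lists 0 members were, but at the shares of all genes lists of this size hold few or none. Of the ATF4 targets 3 were below 0. Of 38 neuropeptide and secretory granule genes 4 were above 0, among them PCSK1 (0.85), which rose by 2.26 to 2.85 with rotenone. Of 66 matrix and integrin genes 3 were above and 1 below. The 5 genes with the smallest p differed on day 8 and came close together on day 15. H1-10-AS1, an antisense transcript, measured 8.58, 9.13 and 9.15 in DMSO on day 8, above means of 6.89 to 7.12 with rotenone, and 6.46, 6.88 and 6.97 on day 15, beside 6.74 to 7.07; it changed by -2.18 in DMSO and by -0.28 to -0.05 with rotenone. TXNIP, which binds thioredoxin and responds to glucose, measured 12.61, 12.38 and 12.15 in DMSO on day 8 and 11.99, 12.52 and 12.02 on day 15. With rotenone its means were 9.76 to 10.05 on day 8 and 12.03 to 12.21 on day 15, a rise of 2.08 to 2.45. BDKRB2, a bradykinin receptor, changed by -1.59 in DMSO, from a mean of 8.22 to 6.63, and by -4.18 to -2.97 with rotenone, from means of 9.86 to 10.29.

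**Figure D5:**
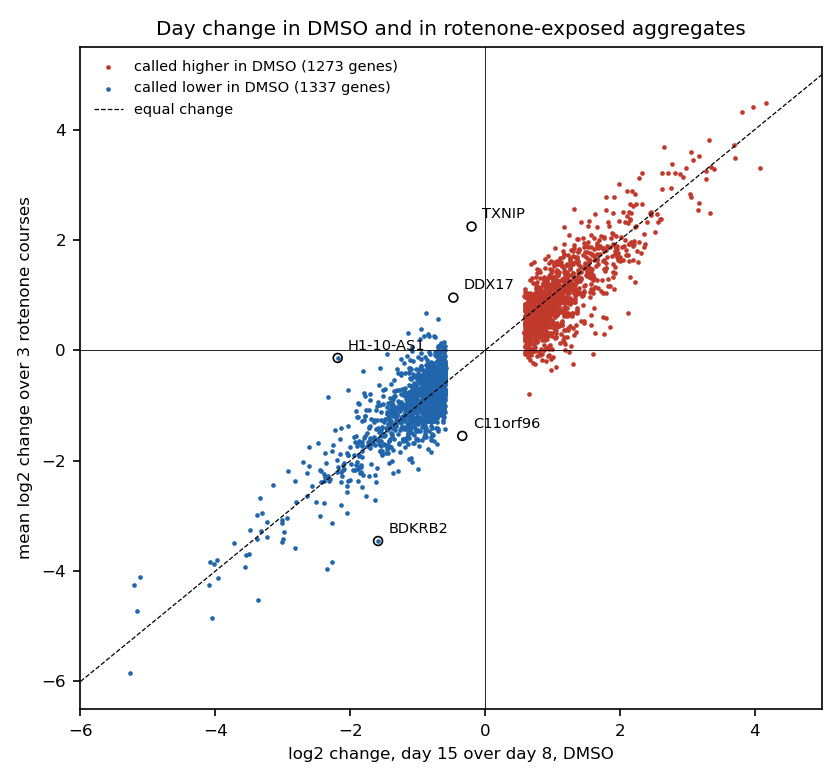
Change from day 8 to day 15 in DMSO (log2, x axis) against the mean change over the 3 rotenone courses (log2, y axis) for the 1273 genes called higher (red) and 1337 called lower (blue) in DMSO, with the 5 genes of smallest p in the contrast circled. Most points follow the dashed line of equal change; TXNIP lies near 0 on the DMSO axis and at 2.25 on the other.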

How the data were processed

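The authors deposited, for each of 24 single-color Agilent arrays, the median spot and local background intensity of every spot as the scanner software gave it (Feature Extraction 11.5.1.1 for slides 1 and 3 and 12.0.0.7 for slide 2, per the file headers), and a table of log2 values that the authors normalized, for 21733 probes. Slide 1 was scanned apart from the others. The array design follows another genome build, so that coordinates are given only for RefSeq promoters.

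Background was corrected with normexp (offset 0) and arrays were quantile normalized, with limma 3.58.1 and data.table (version 1.17.8) in R 4.3.3. A spot was kept if its signal on 3 or more arrays exceeded, by a factor of 1.1, the 95th percentile of 308 negative controls; control spots and flagged values were left out. Means were taken over the spots of a probe and then over the probes of a gene. The accession of a probe gave its gene through the RefSeq transcripts (30275 of 50599 probes), which left 21344 genes.

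All 24 arrays were fitted with 8 group means and the slide, which is the replicate number, as a block (lmFit, eBayes; 14 residual and 2.20 prior degrees of freedom). All p values are two-sided and Benjamini-Hochberg adjusted over all genes. A gene was called if it changed by more than 1.5-fold and its adjusted p was under 0.05. Arrays of a number deviated together from their group means in all 84 pairs (lowest correlation 0.172, median 0.458), against a median of -0.355 for 168 pairs of different numbers, so that the numbers pair the samples by slide. No spot was saturated. A gene not well above background on any array of a day has a bound there, and its difference is given as at least N-fold, against the lowest signal of probes well above background on each array or its own, if higher. Precision is limited by the number of arrays. The fit and the calls were tested on simulated gene values with independent normal noise of the fitted spread. The steps before the fit were not tested in this way.

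The comparison, gene lists and tests were chosen with earlier results of these data known. The text names the 10 genes with the largest change in each direction among genes called, without overlap between days and well above background on all arrays of the brighter day; up to 3 called members per list and direction; the dopaminergic and switch pair lists; genes named in the study; and the 5 genes with the smallest p in the contrast with rotenone. Further members (such as NEUROD1, SST, SCG2, MCM7, CCNB2, UBE2C, HMMR, TK1, PTTG1) and the interferon and muscle genes were added after their values were seen. Some members counted in the lists are not reported here. Promoters held 250 bases before and 50 after the gene start. Alternatives covered the block, ComBat, slide 1, background offset, scaling, filter, probe choice, deposited values and leaving out each DMSO array. The plots used matplotlib 3.10.9 in Python 3.11.15.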

Additional observations from a re-analysis of the deposited data

Results flagged for a closer look

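For 5 genes the change from day 8 to day 15 differed between DMSO and the mean of the 3 rotenone courses by a test of the difference itself, with the smallest p of all 21344 genes in that limma contrast. The difference (DMSO minus rotenone, log2) was -2.05 for H1-10-AS1 (adjusted p = 4.08e-07), which fell in DMSO by 2.18. It was -2.45 for TXNIP (adjusted p = 5.42e-07), which changed by -0.20 in DMSO. DDX17, an RNA helicase, had a difference of -1.43 (adjusted p = 4.99e-06), with a change of -0.47 in DMSO and of 0.92 to 0.98 with rotenone. BDKRB2 had a difference of 1.87 (adjusted p = 7.32e-06). C11orf96, a gene of little described function, had a difference of 1.21 (adjusted p = 7.32e-06), with -0.34 in DMSO and -1.85 to -1.32 with rotenone. For all 5 genes the DMSO and rotenone means lay further apart on day 8 than on day 15: DDX17 measured 9.91 in DMSO on day 8 beside 8.56 to 8.63 with rotenone, and 9.44 beside 9.48 to 9.60 on day 15. C11orf96 measured 9.65 beside 10.86 to 11.12 on day 8 and 9.31 beside 9.27 to 9.54 on day 15. Day 8 arrays were taken at the end of the exposure and day 15 arrays a week after it.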

How the results depend on the processing

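With the slide left out as replicate block, 865 genes were higher and 944 lower in DMSO, and the contrast with rotenone had 61 above and 62 below. The 6 DMSO arrays alone gave 806 and 855 with the replicate block, and 569 and 591 as 2 unpaired groups. Slides 2 and 3 alone left 77 and 71 genes in the contrast. A background offset of 50 gave 794 higher and 686 lower, and 124 and 118 in the contrast; the processed signal gave 2381 higher and 350 above in the contrast. Leaving out 1 DMSO array at a time gave 1117 to 1182 higher and 1188 to 1359 lower, and 119 to 189 above and 154 to 194 below in the contrast, with 119 above without day 15 replicate 2. The cause of these shifts was not tested; fewer arrays also leave fewer degrees of freedom. The other alternatives moved both DMSO counts by less than 1.5 times: ComBat in place of the block gave 1230 and 1356, the deposited values 1219 and 1241, and scaling to the 75th percentile 1280 and 1167. Of 131 named genes that were called, 86 were called under every alternative and 114 without each DMSO array in turn, and none was called in the opposite direction in any alternative. Genes near background have the least certain sizes.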

Other observations

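CD86, a costimulatory membrane protein, and PPP6R1, a phosphatase subunit, were chosen after their values were seen, as genes called higher whose day 15 arrays were widely spread. CD86 measured 6.19, 5.98 and 6.49 on day 8 and 11.41, 6.11 and 10.31 on day 15, so that day 15 replicate 2 lay at the day 8 level and the other 2 far above it. PPP6R1 measured 4.90, 4.51 and 5.27 on day 8 and 8.49, 5.86 and 7.71 on day 15, with the same array lowest. With rotenone the 2 genes rose by 3.91, 3.17 and 3.70 and by 2.52, 2.13 and 2.69 in the 3 courses. Whether the spread belongs to the samples or to the arrays was not tested.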
